A study of Homo sapiens with 4 samples.

Results

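Unexposed A549 cells were compared with unexposed 293T cells by RNA sequencing, as the baseline on which a magnetic field experiment was built. A gene was included when its level was at least 0.5 FPKM in at least 3 of the 6 unexposed libraries, which held for 13479 of the 26348 genes listed. FPKM is the number of fragments scaled to the length of the gene and to the size of the library. The A549 control group, a non-small cell lung cancer line labelled as lung, and the 293T control group, an epithelial line labelled as renal, each had 3 libraries and no magnetic field. The other 6 of the 12 libraries, 3 of each line, came from cells kept in a field for 2 h, and they served here as a second set in which the lines could be compared. All libraries were made from poly(A)-selected RNA. Each line stands for 1 culture lineage, so a difference between the groups is one between 2 lines, in which tissue, donor, disease and immortalization cannot be told apart. The labels call the libraries of a group replicates without saying whether each had its own culture, so p-values rest on a spread that may be technical.

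A549 was derived from a lung adenocarcinoma and is a common model of alveolar epithelial and lung cancer cells. Its known lesions include loss of function of STK11, KEAP1 and SMARCA4, and loss of the CDKN2A region on the short arm of chromosome 9. KEAP1 normally directs the transcription factor NRF2 (gene NFE2L2) to degradation, and NRF2 drives genes for glutathione, thioredoxin, NADPH, iron storage and the conjugation or reduction of reactive compounds. 293T was derived from human embryonic kidney cells transformed with adenovirus DNA and later given the SV40 large T antigen, and the viral proteins bind tumour suppressor proteins of the host cell. Lines of this embryonic kidney origin have often been described as sharing genes with neuronal and adrenal lineages.

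The 2 lines differed in most genes. With limma and Benjamini-Hochberg adjustment over all 13479 genes, 12066 genes passed an adjusted p of 0.05 (89.5%), 4456 of them higher in A549 (33.1%) and 7610 higher in 293T (56.5%). A size rule was therefore added, under which the log2 difference, always A549 minus 293T on log2(FPKM + 1), also had to reach 1 in either direction. By this rule 1702 genes were higher in A549 (12.6%) and 2225 in 293T (16.5%), and the counts of gene groups below are to be read against these shares. Counts by the adjusted p alone are to be read against 33.1% and 56.5%. The excess in 293T by the size rule depended on the scaling. It was not kept after median centring, with 1887 higher in A549 and 1847 in 293T, or under quantile normalization, with 1873 and 1846. Rescaling to TPM gave 1928 and 3439, a wider excess. It also raised the values relative to the 1 added before the log, so the 2 effects cannot be told apart there. Adding 0.1 in place of 1, without rescaling, gave 2240 and 3308. By the adjusted p alone, more genes were higher in 293T under each of these scalings. Of the genes tested, 2632 were short of the minimum of 0.5 FPKM in at least 1 library of a line. A gene that met the minimum only through the line where it was high had to differ, so counts over gene groups are descriptions. Beside them stands the number of members short of the minimum in 1 line. It counts those under the minimum in at least 1 library of either line, so it includes some near the minimum in both lines. For all 3927 genes past the size rule, the 3 values of one line lay wholly above those of the other, which was so for 89.9% of all genes tested. The median log2 difference over all genes tested was -0.25, and in such bulk samples a share of cells with a transcript and its level per cell cannot be told apart. Genes at a mean of at least 1 FPKM in both lines numbered 10046, while 430 were at 1 FPKM or more in A549 and under 0.1 in 293T, and 425 showed the opposite. Protein-coding and long non-coding genes passed the size rule at like rates, 12.5% and 13.6% higher in A549 and 16.5% and 17.5% higher in 293T.

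**Figure D1:**
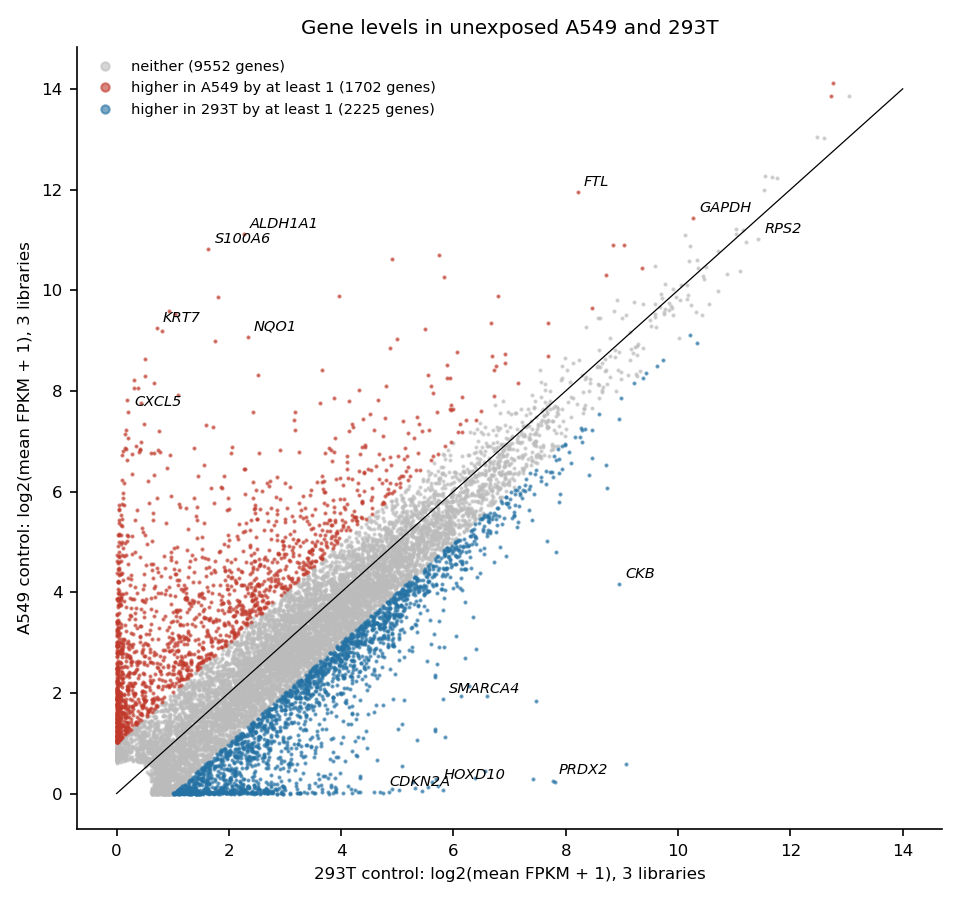
Mean level of each gene tested in the unexposed 293T libraries (x axis) and the unexposed A549 libraries (y axis), both as log2(mean FPKM + 1) over 3 libraries. Red and blue points are the 1702 and 2225 genes past the adjusted p and the size rule, and the line marks equal levels. S100A6, ALDH1A1 and KRT7 lie far above the line, and PRDX2, CKB and CDKN2A far below it.

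The totals of the 6 libraries were 38245297 to 38884704 counts, recovered from the deposited values, so depth was nearly equal. Pearson's r of log2(FPKM + 1) was 0.997 to 0.999 between libraries of a line and 0.788 to 0.790 between lines, across genes, which are not independent replicates. Genes encoded by the mitochondrial genome took 8.35% to 9.28% of the counts in A549 and 4.85% to 5.21% in 293T, and the 100 genes with most counts took 23.3% to 24.5% and 18.7% to 19.1%. A few genes with near-identical copies varied among libraries of one line, as did EIF3CL, a copy of a translation initiation factor gene, at 0.999, 1.18 and 4.4 FPKM in A549 and 2.12, 6.78 and 2.37 in 293T.

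Of 495 genes that averaged 100 FPKM or more in A549, 34 were under 0.5% of that level in 293T, with a median of 0.145%, 0.148% and 0.150% of the A549 level in the 3 293T libraries. In the other direction only IRS4, PRDX2 and AMOT met these limits, and their levels in A549 replicates 1, 2 and 3 had medians of 0.0385%, 0.0514% and 0.180% of the 293T level. For these 3 genes A549 replicate 3 stood above replicates 1 and 2, and the exposed A549 libraries had medians of 0.211%, 0.146% and 0.155%. The source of these few reads was not tested, and the folds of genes at this level rest on them.

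**Figure D2:**
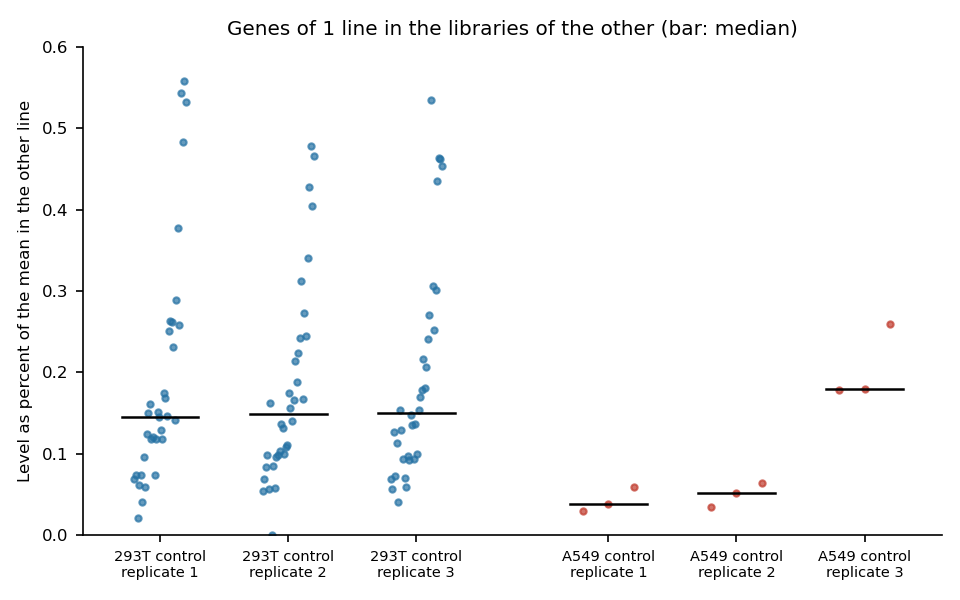
Levels of genes of one line in each library of the other, as percent of their mean in the line that expresses them, for genes at 100 FPKM or more in one line and under 0.5% of it in the other. Each point is a gene and each bar the median. The 293T libraries have medians of 0.145% to 0.150%, and A549 replicate 3 stands at 0.180% above 0.0385% and 0.0514% in replicates 1 and 2.

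The 15 genes with the largest differences in favour of A549 included calcium-binding proteins, enzymes that reduce or oxidize aldehydes and carbonyls, and keratins. S100A6, a small calcium-binding protein, read 1756, 1851 and 1783 FPKM in the 3 A549 libraries and 2.11, 1.79 and 2.42 in the 3 293T libraries, a log2 difference of 9.18 ± 0.067 (standard error, adjusted p = 4.1e-12). S100A4, a related protein linked with cell motility, read 877, 974 and 933 FPKM in the 3 A549 libraries and 2.14, 2.9 and 2.51 in the 3 293T libraries. No 293T library came near an A549 library for either gene. ALDH1A1, which oxidizes retinaldehyde to retinoic acid, read 2305, 2192 and 2154 FPKM in the 3 A549 libraries and 3.74, 3.69 and 3.97 in the 3 293T libraries, a log2 difference of 8.85 ± 0.035 (adjusted p = 1.0e-12). It was the third most abundant nuclear gene of A549. AKR1B10, AKR1C3 and AKR1C2, aldo-keto reductases that reduce aldehydes, ketones and steroids, had log2 differences of 8.66, 8.13 and 7.79. AKR1B10 alone read 740.1, 782 and 769 FPKM in the 3 A549 libraries and 1.16, 0.823 and 0.713 in the 3 293T libraries. ALDH3A1, which oxidizes aromatic and lipid-derived aldehydes, had a mean of 283 ± 3.26 FPKM in A549 and 0.586 ± 0.109 in 293T.

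Keratin 7, a keratin of simple and glandular epithelia, read 615, 594 and 604 FPKM in the 3 A549 libraries and 0.716, 0.621 and 0.589 in the 3 293T libraries (log2 difference 8.53 ± 0.036, adjusted p = 1.0e-12). KRT81, better known from hair, had a mean of 738 ± 9.26 FPKM in A549 and 1.05 ± 0.161 in 293T, and its reads may be shared with the near-identical KRT86. TGFBI, an extracellular matrix protein induced by TGF-beta, had a mean of 579 ± 17.4 FPKM in A549 and 0.756 ± 0.104 in 293T. The other genes among the 15 largest differences were C19orf33 at 295 against 0.24 FPKM, CYP24A1, which inactivates vitamin D, at 264 against 0.242 FPKM, the LIM-domain gene CRIP1 at 264 against 0.31 FPKM, the tetraspanin-like TM4SF1 at 224 against 0.143 FPKM and the neutrophil-attracting chemokine CXCL5 at 189.6 against 0.153 FPKM, A549 first.

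The 15 genes with the largest differences in favour of 293T were of several kinds. IRS4, an insulin receptor substrate long known from embryonic kidney cells in culture, read 219.6, 223 and 223 FPKM in 293T and 0.0655, 0.0751 and 0.394 in A549, a log2 difference of -7.57 ± 0.095 (adjusted p = 4.8e-11). PRDX2, a cytosolic peroxiredoxin that most cells express, read 220.1, 215 and 216 FPKM in 293T and 0.0834, 0.112 and 0.39 in A549, a log2 difference of -7.52 ± 0.087 (adjusted p = 3.1e-11). AMOT, a scaffold that restrains the coactivator YAP, read 169, 170.3 and 168 FPKM in 293T and 0.099, 0.109 and 0.438 in A549. All 3 were highest among A549 libraries in replicate 3, and in no A549 library did they reach 1 FPKM. The paralogue PRDX1, in contrast, was at 698 ± 40.5 FPKM in A549 and 511 ± 3.47 in 293T.

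Of the others, HEY1, a repressor downstream of Notch, was at 0.356 against 93.1 FPKM in A549 and 293T, BEX4, of a family known from brain, at 0.246 against 82.4 FPKM, and RADX, which binds single-stranded DNA at replication forks, at 0.0468 against 55.5 FPKM. CA2, a carbonic anhydrase, had a mean of 2.58 ± 0.314 FPKM in A549 and 177 ± 2.15 in 293T and so remained well above the floor in A549. HOXD10 and HOXD11, homeobox genes of posterior and limb regions, were at 0.115 against 51.5 FPKM and 0.171 against 37.8 FPKM. The axon guidance ligand SLIT2 was at 0.101 against 45.9 FPKM, the actin-bundling protein LCP1 of blood cells at 0.165 against 48.2 FPKM, and CITED1, a coregulator of nephron progenitors, at 0.223 against 50.4 FPKM. NEFM, a neurofilament subunit, was at 0.0407 against 42.4 FPKM, ZCCHC12 at 0.0782 against 38.6 FPKM and the secreted protease ADAMTS1 at 0.0514 against 31.6 FPKM.

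**Figure D3:**
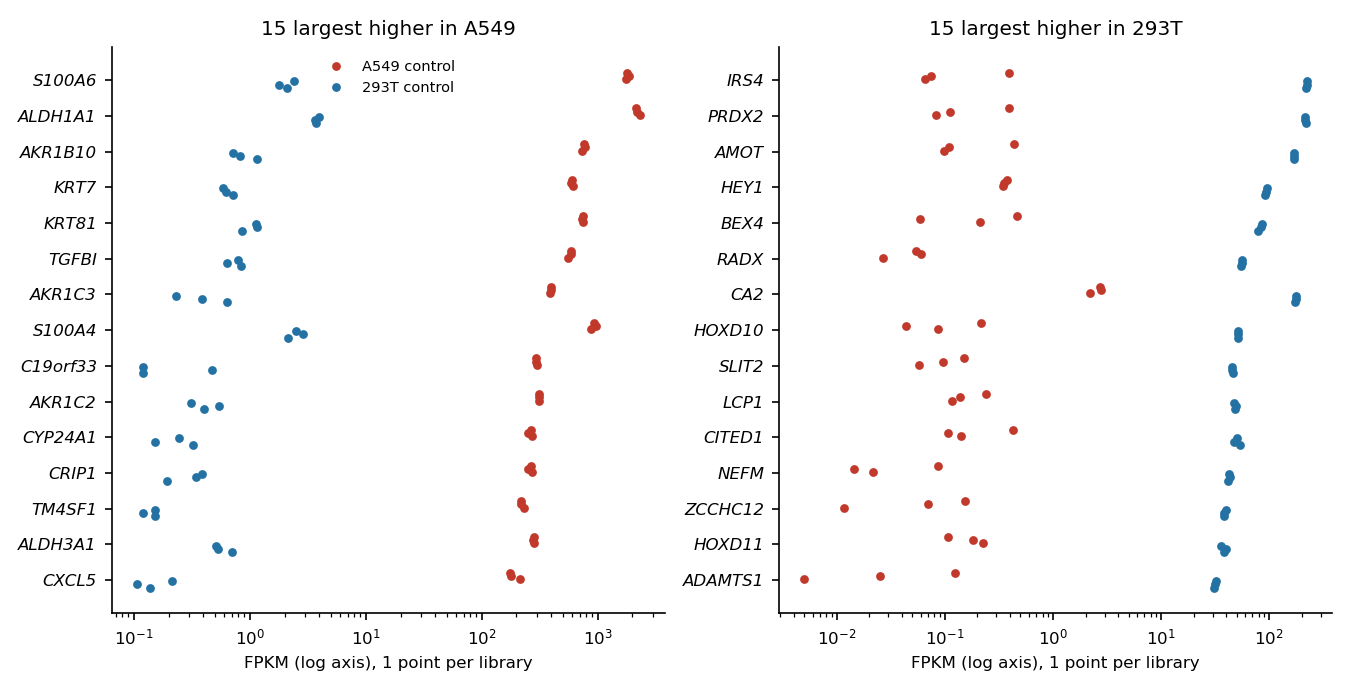
FPKM in each of the 6 unexposed libraries (log axis, 1 point per library) for the 15 genes with the largest log2 difference in each direction among those whose libraries did not overlap between the lines. IRS4, PRDX2 and AMOT show 1 A549 library, replicate 3, to the right of the other 2.

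The most abundant nuclear transcripts differed in part between the lines, and RPS2, given below, lay above FTH1 and TMSB10 in both. In A549 they began with ferritin light chain, FTL, at 3997, 3920.3 and 3876 FPKM in the 3 A549 libraries and 303, 293 and 292 in the 3 293T libraries, followed by GAPDH at 2753 ± 64.5 FPKM in A549 and 1235 ± 22.5 in 293T, ALDH1A1 and ACTB at 2174 ± 34 FPKM in A549 and 1113 ± 9.44 in 293T. The heavy chain of ferritin, FTH1, was at 1911 ± 31.2 FPKM in A549 and 458 ± 3.53 in 293T, and TMSB10, which binds actin monomers, at 1918 ± 14.4 FPKM in A549 and 524 ± 23.3 in 293T. In 293T the 8 most abundant were genes of the ribosome, its scaffold RACK1 and the elongation factor EEF1A1. RPS2 was at 2067 ± 18.6 FPKM in A549 and 2745 ± 51.5 in 293T, RPL39 at 1331 against 2189 FPKM, RPS18 at 1281 against 1861 FPKM, RACK1 at 1005 against 1679 FPKM and RPS4X at 844 against 1499.6 FPKM, A549 first, all higher in 293T by the adjusted p. EEF1A1 was at 1764 against 1681 FPKM (log2 difference 0.07) and RPL7A at 1399.6 against 1446 FPKM (log2 difference -0.05, adjusted p = 0.13), and the sign of the EEF1A1 difference turned negative when values were rescaled to TPM and under quantile normalization.

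Targets of NRF2 were higher in A549 nearly throughout. The list had 46 genes, 43 of them tested and 9 of these short of the minimum in a library of 1 line. Higher by the size rule were 33 in A549 and 0 in 293T, with a median log2 difference of 2.29. By the adjusted p alone 41 were higher in A549 and 2 in 293T, and lists of this kind were in part drawn up in lung cancer lines with mutant KEAP1, so the direction is not independent evidence. NQO1, a quinone reductase and the classic marker of the pathway, read 525, 552 and 537 FPKM in the 3 A549 libraries and 4.47, 4.0 and 3.68 in the 3 293T libraries, a log2 difference of 6.74 ± 0.054 (adjusted p = 6.0e-12). GPX2, a glutathione peroxidase of epithelia, read 143, 150.4 and 149.8 FPKM in the 3 A549 libraries and 0.142, 0 and 0.227 in the 3 293T libraries, with no count in 1 of the 293T libraries. The organic anion exporters ABCC3 and ABCC2 were at 104 against 0.0689 FPKM and 109 against 0.316 FPKM, A549 first. SPP1, a secreted phosphoprotein, was at 97.5 against 0.134 FPKM. The 2 members lower in A549 were ABCC5 at 3.31 ± 0.159 FPKM in A549 and 6.36 ± 0.16 in 293T and WDR90 at 4.28 ± 0.309 FPKM in A549 and 5.08 ± 0.0651 in 293T.

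Promoters of the NRF2 targets were searched for the core of the antioxidant response element, TGACNNNGC, on both strands of 300 bases, 250 before to 50 after the first start listed for each gene in RefSeq on GRCh38.p14. Of 43 tested targets 33 had a promoter in the table, and 10 of these held the core (30.3%), against 13.6% of all 27305 promoters. The shares were 16% among genes higher in A549 by the size rule, 13% among those higher in 293T and 15.7% among the others. The following stretches are shown because they belong to the targets past the size rule in which the core lay before that start. The core is in capitals, each is read 5′ to 3′ along the strand of its gene, and where it begins with GC the core lies on the opposite strand.
GPX2: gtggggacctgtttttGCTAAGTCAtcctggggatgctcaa
PGD: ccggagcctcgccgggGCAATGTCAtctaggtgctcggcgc
TXNRD1: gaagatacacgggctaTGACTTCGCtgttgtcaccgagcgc
GCLM: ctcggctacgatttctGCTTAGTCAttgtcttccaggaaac
ME1: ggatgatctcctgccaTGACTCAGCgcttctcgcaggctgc
ABCB6: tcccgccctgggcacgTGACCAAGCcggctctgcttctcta
CYP4F11: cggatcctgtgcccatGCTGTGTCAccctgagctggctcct

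These stretches lie at chr14:64942843-64942883 (minus strand) for GPX2, chr1:10398847-10398887 (plus) for PGD, chr12:104215664-104215704 (plus) for TXNRD1, chr1:93909440-93909480 (minus) for GCLM, chr6:83431164-83431204 (minus) for ME1, chr2:219219086-219219126 (minus) for ABCB6 and chr19:15934999-15935039 (minus) for CYP4F11. The core began 122, 201, 99, 34, 137, 152 and 156 bases before the start, in that order. The letters in ME1 also contain TGACTCA, the site of AP-1 factors, so the motifs overlap there. A match is a description of letters, and binding was not measured.

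The genes of these promoters spanned a wide range of differences. PGD, the NADPH-making 6-phosphogluconate dehydrogenase, read 429, 445 and 439.8 FPKM in the 3 A549 libraries and 64.8, 67.3 and 64.3 in the 3 293T libraries (log2 difference 2.72). TXNRD1, thioredoxin reductase, read 367, 365 and 362 FPKM in the 3 A549 libraries and 57, 59.6 and 56.6 in the 3 293T libraries (log2 difference 2.64). Both were about 6 to 7 times as high in A549, with folds of 6.69 and 6.32. GCLM, the modifier subunit of the enzyme that starts glutathione synthesis, was at 23.1 ± 3.57 FPKM in A549 and 8.25 ± 0.371 in 293T, and ME1, the NADPH-making malic enzyme, at 32.2 ± 1.7 FPKM in A549 and 11.9 ± 0.289 in 293T. ABCB6, a porphyrin transporter, was at 11.5 ± 0.337 FPKM in A549 and 4.14 ± 0.215 in 293T. CYP4F11, a fatty acid hydroxylase, was at 7.08 ± 0.132 FPKM in A549 and 0.00282 ± 0.00489 in 293T.

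The regulators of the pathway had a median log2 difference of 0.41, beside 2.29 for the targets. NFE2L2 itself was at 34.1 ± 0.693 FPKM in A549 and 18.8 ± 0.642 in 293T (log2 difference 0.82, adjusted p = 4.7e-08), and KEAP1 at 23.5 ± 1.27 FPKM in A549 and 23.6 ± 1.07 in 293T (log2 difference -0.01, adjusted p = 0.84, with a positive sign under quantile normalization and median centring). The small MAF partners MAFF and MAFK were higher in A549, at 12.7 against 0.949 FPKM and 33.2 against 4.57 FPKM, A549 first, and so was the autophagy receptor SQSTM1, which binds KEAP1, at 319 ± 0.828 FPKM in A549 and 45.5 ± 0.676 in 293T. RBX1, a subunit of the ubiquitin ligase that KEAP1 serves, was lower, at 27 ± 1.01 FPKM in A549 and 69.9 ± 2.27 in 293T. Of the 12 regulators tested (1 short of the minimum in 1 line), 5 were higher in A549 and 1 in 293T by the size rule.

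Other families of detoxifying enzymes were divided by member. Among 11 aldo-keto reductases tested of 16 listed (5 short of the minimum in 1 line), 8 were higher in A549 by the size rule and none in 293T, with a median log2 difference of 2.26. AKR1B1, the aldose reductase, was at 941 ± 14.9 FPKM in A549 and 109 ± 1.41 in 293T and AKR1C1 at 52.3 ± 1.33 FPKM in A549 and 0.0916 ± 0.0143 in 293T, although AKR1C1, AKR1C2 and AKR1C3 are alike enough to exchange reads. AKR1B10 relative to AKR1B1 was 0.812 ± 0.023 in A549 and 0.00821 ± 0.00208 in 293T. AKR1E2 had no count in 293T and 2.3 FPKM in A549, at least 163-fold higher against a floor of 3 counts per library. Of 17 aldehyde dehydrogenases tested (3 short of the minimum in 1 line), 6 were higher in A549 and 4 in 293T by the size rule. ALDH3B1 was at 71.3 against 0.0912 FPKM and ALDH1A3 at 14.8 against 1.34 FPKM, A549 first, whereas ALDH1A2, another maker of retinoic acid, read 0, 0 and 0.022 FPKM in the 3 A549 libraries and 16, 14.6 and 15.3 in the 3 293T libraries. ALDH1A1 and ALDH1A2 thus lay in opposite directions. The mitochondrial ALDH1B1 was at 31.2 ± 0.421 FPKM in A549 and 32 ± 1.1 in 293T (adjusted p = 0.33), and ALDH1A1 relative to it was 71.1 ± 3.38 in A549 and 0.119 ± 0.00885 in 293T.

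Glutathione transferases were divided as well. Of 12 tested (2 short of the minimum in 1 line), 1 was higher in A549 by the size rule, the microsomal MGST1 at 132 ± 7.04 FPKM in A549 and 13.8 ± 0.572 in 293T, and 3 were higher in 293T. These were GSTM2 at 0.121 ± 0.0199 FPKM in A549 and 9.77 ± 0.895 in 293T, GSTM3 at 0.658 ± 0.125 FPKM in A549 and 10.4 ± 0.442 in 293T and GSTA4 at 5.57 ± 0.23 FPKM in A549 and 20.7 ± 1.32 in 293T. GSTP1, the most abundant, was at 389.7 ± 10.1 FPKM in A549 and 299.7 ± 2.37 in 293T, and its ratio to GSTM3 was 607 ± 121 in A549 and 28.8 ± 1.2 in 293T. Among 22 cytochrome P450 and UDP-glucuronosyltransferase genes tested of 45 listed (13 short of the minimum in 1 line), 10 were higher in A549 and 5 in 293T by the size rule. CYP1B1, which metabolizes oestrogens and polycyclic compounds, was at 27.8 ± 4.97 FPKM in A549 and 1.4 ± 0.219 in 293T and CYP2S1 at 21.3 ± 0.555 FPKM in A549 and 2.0 ± 0.318 in 293T. The retinoic acid hydroxylase CYP26A1 was at 0.118 ± 0.0316 FPKM in A549 and 4.47 ± 0.644 in 293T and the epoxygenase CYP2J2 at 0.0777 ± 0.0158 FPKM in A549 and 2.74 ± 0.298 in 293T. UGT1A9 had no count in 293T and 2.43 FPKM in A549, and reads of the UGT1A genes cannot be assigned apart since they share their last exons.

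Around CDKN2A at 9p21 the A549 libraries held almost no counts. CDKN2A, which encodes the inhibitors p16 and p14ARF, had 0, 3 and 4 counts in the A549 libraries and 4789, 4673 and 4355 in the 293T libraries. The neighbouring inhibitor gene CDKN2B had 0, 0 and 1 against 859, 826 and 782 counts. The antisense transcript CDKN2B-AS1 had none in A549 against 114, 139 and 140, at least 44.2-fold lower against a floor of 3 counts per library. CDKN2B-AS1 overlaps CDKN2A and CDKN2B on the other strand, and whether counting used strand is unknown here. CDKN2A lies at chr9:21967752-21995324 on GRCh38.p14, and its log2 difference was -4.73 ± 0.047 (adjusted p = 1.5e-11).

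Genes on both sides were read in A549. MTAP, a methylthioadenosine phosphorylase next to CDKN2A, kept 528, 505 and 540 counts in A549 against 2910, 3106 and 2911 in 293T, and gene-level values do not show which of its exons gave them. Farther out, KLHL9 had 3125, 2845 and 3009 against 3750, 3848 and 3887, FOCAD 3660, 3859 and 3928 against 3077, 3247 and 2981 and MLLT3 1115, 1228 and 1200 against 2131, 2136 and 1998 counts. IFNE, an epithelial interferon between KLHL9 and MTAP, was higher in A549, with 240, 236 and 221 against 1, 5 and 1 counts. It lies within the long non-coding gene MIR31HG, which had 1373, 1420 and 1422 against 28, 21 and 16. HACD4, between FOCAD and KLHL9, was under the minimum, with 51, 44 and 48 against 1, 0 and 0 counts. On the far side, DMRTA1, also under the minimum, had 100, 120 and 96 against 11, 13 and 14 counts, and ELAVL2, an RNA-binding protein of neurons, 19, 10 and 11 against 874, 868 and 914. TUSC1, CAAP1 and PLAA, 3709 to 4936 kb away, were read in both lines, at 9.31 against 10.7 FPKM, 12.3 against 10.8 FPKM and 14.7 against 12.1 FPKM, A549 first. DNA was not measured.

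**Figure D4:**
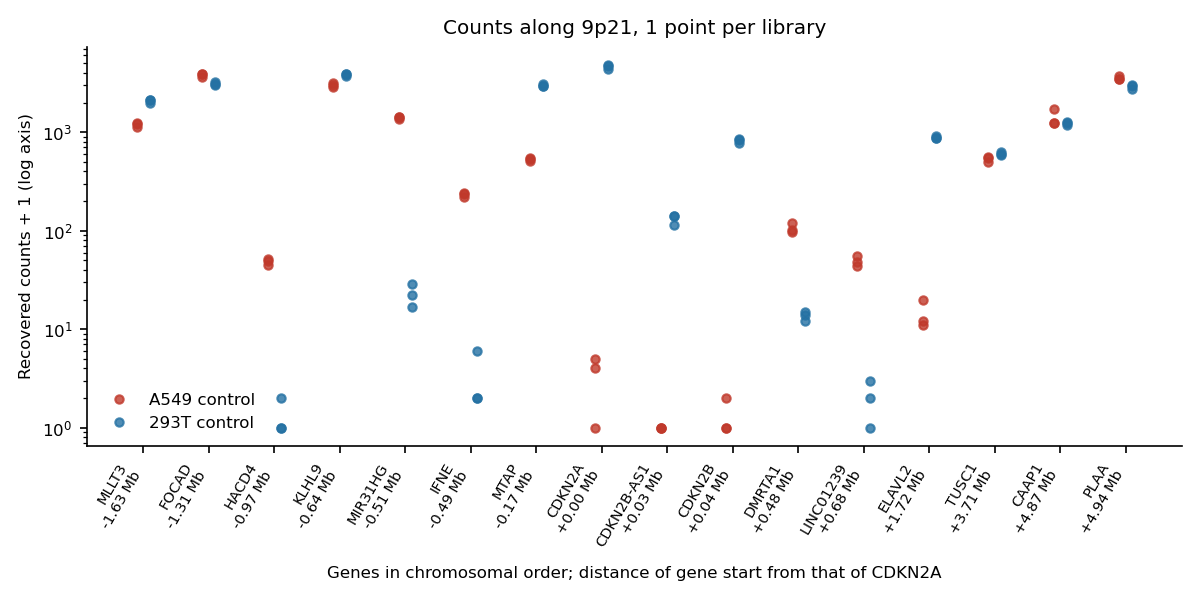
Recovered counts plus 1 (log axis) for genes with at least 50 counts in a library along 9p21, in chromosomal order, with the distance of each gene's start from that of CDKN2A. Each point is 1 of 6 unexposed libraries. Between MTAP and DMRTA1 the A549 libraries hold 0 to 4 counts for CDKN2A, CDKN2B-AS1 and CDKN2B, while genes on both sides are read in A549.

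Of the other genes known to be altered in A549, SMARCA4 stood out. SMARCA4, an ATPase of the SWI/SNF chromatin remodelling complex, read 2.73, 2.52 and 2.77 FPKM in the 3 A549 libraries and 55.2, 55.3 and 54.8 in the 3 293T libraries, a log2 difference of -3.93 ± 0.037 (adjusted p = 1.1e-11). Its paralogue SMARCA2 was at 10.3 ± 0.167 FPKM in A549 and 8.17 ± 0.107 in 293T, so SMARCA2 relative to SMARCA4 was 3.86 ± 0.199 in A549 and 0.148 ± 0.00236 in 293T. Of 27 SWI/SNF subunits tested, 8 were higher in 293T by the size rule and none in A549. They included the core subunits SMARCB1 at 9.92 ± 0.392 FPKM in A549 and 39.7 ± 1.02 in 293T and SMARCC1 at 21.3 ± 0.0508 FPKM in A549 and 78.6 ± 1.01 in 293T, BCL7A at 4.7 ± 0.112 FPKM in A549 and 21.3 ± 0.29 in 293T and PBRM1 at 5.28 ± 0.0528 FPKM in A549 and 21.4 ± 0.298 in 293T. STK11, the kinase that activates AMPK, was at 12.6 ± 0.393 FPKM in A549 and 19.2 ± 0.939 in 293T and the ubiquitin ligase CBL at 5.3 ± 0.166 FPKM in A549 and 11 ± 0.509 in 293T, both past the test and under the size rule. The checkpoint kinase ATR was at 9.39 ± 0.174 FPKM in A549 and 8.88 ± 0.223 in 293T (adjusted p = 0.084).

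A few genes of growth arrest and stress, chosen after their values were seen and not standing for a list, follow. SFN, the 14-3-3 sigma protein of epithelia, was at 79.5 ± 2.65 FPKM in A549 and 0.597 ± 0.237 in 293T and the polo-like kinase PLK2 at 86.2 ± 2.39 FPKM in A549 and 3.88 ± 0.445 in 293T. CDKN1A, the cell cycle inhibitor p21, read 73.9, 74.7 and 77.6 FPKM in the 3 A549 libraries and 14.2, 13.8 and 14 in the 3 293T libraries. The pro-apoptotic PMAIP1 was at 6.26 ± 1.2 FPKM in A549 and 21.9 ± 1.19 in 293T and the stress protein SESN2 at 5.46 ± 0.211 FPKM in A549 and 19 ± 0.0849 in 293T, both higher in 293T. The ubiquitin ligase MDM2 was at 13 ± 1.14 FPKM in A549 and 13.3 ± 0.346 in 293T (adjusted p = 0.57).

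Genes of the cell cycle were lower in A549 for the most part. Of 41 DNA replication genes, 34 were higher in 293T by the adjusted p and 9 by the size rule, against 6 and 0 in A549, with a median log2 difference of -0.63 beside -0.25 over all genes. Among those that differed most were CDC45, which helps to unwind DNA at the fork, at 16.6 ± 0.626 FPKM in A549 and 43.5 ± 0.792 in 293T and the helicase subunit MCM2 at 44.7 ± 0.439 FPKM in A549 and 112 ± 1.61 in 293T. PCNA, the sliding clamp, went against the rest at 342 ± 7.39 FPKM in A549 and 184 ± 2.41 in 293T. Of 35 G2/M genes, 14 were higher in 293T and 1 in A549 by the size rule, and the median was -0.85. CDC25A, a phosphatase that activates cyclin-dependent kinases, read 7.96, 7.74 and 7.72 FPKM in the 3 A549 libraries and 66.3, 63.7 and 66.1 in the 3 293T libraries, and its relative CDC25B lay the other way at 90.4 ± 1.44 FPKM in A549 and 23.6 ± 0.427 in 293T. The proliferation marker MKI67 was slightly higher in A549, at 42.8 ± 2.17 FPKM in A549 and 35.7 ± 0.916 in 293T. Growth rate and the share of cells in each phase were not measured.

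D-type cyclins were divided between the lines. CCND1 was at 112 ± 1.74 FPKM in A549 and 13.2 ± 0.397 in 293T and CCND3 at 39.4 ± 0.134 FPKM in A549 and 13.2 ± 0.56 in 293T, while CCND2 was at 0.0106 ± 0.00606 FPKM in A549 and 3.6 ± 0.164 in 293T. Of 28 genes of the RB and E2F pathway (4 short of the minimum in 1 line), 3 were higher in A549 by the size rule, namely CCND1, CDKN1A and CCND3, and 6 in 293T. The last group held E2F3 at 5.23 ± 0.0708 FPKM in A549 and 14.7 ± 0.269 in 293T, CDKN2C at 10.8 ± 0.424 FPKM in A549 and 30.6 ± 1.29 in 293T, TFDP2, CCND2, CDKN2B and CDKN2A.

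Markers of the labelled tissues were then examined. Of the lung epithelium list, with 29 entries, 12 were tested (8 short of the minimum in 1 line), 6 of them higher in A549 by the size rule and 1 in 293T. Several markers of alveolar type 2 cells were at or near 0 in A549, while others, such as ABCA3 given below, were not. The listed SFTPA1 and SFTPB had no match in the data. SFTPA2, SFTPC and SFTPD were at 0, 0 and 0.0752 FPKM in A549 and SLC34A2 at 0.00203. The lung regulator NKX2-1 was at 0.0108 FPKM in A549, with 1 count in each library, and 0.947 ± 0.0605 in 293T. NAPSA, an aspartic protease of the same cells, did not pass the test, at 0.604 ± 0.0979 FPKM in A549 and 0.524 ± 0.0371 in 293T. The members with the largest differences were CAV1, the caveolar coat protein, at 191 ± 6.02 FPKM in A549 and 4.39 ± 0.445 in 293T, the gel-forming mucins MUC5AC at 22.8 ± 1.43 FPKM in A549 and 0.0199 ± 0.0128 in 293T and MUC5B at 6.94 ± 0.343 FPKM in A549 and 0.00629 ± 0.00362 in 293T, and the transcription factor ETV5 at 13.3 ± 0.604 FPKM in A549 and 0.373 ± 0.0889 in 293T. ABCA3, the lipid transporter of lamellar bodies, was at 12.4 ± 0.527 FPKM in A549 and 3.47 ± 0.0391 in 293T. PDPN, a marker of alveolar type 1 cells, was the member higher in 293T, at 0.00547 ± 0.00474 FPKM in A549 and 10.4 ± 0.573 in 293T. The summed list ran from 279 to 292 FPKM over the A549 libraries and 54.4 to 57.2 over the 293T libraries, and most of the A549 sum was CAV1.

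Kidney markers were more often higher in 293T by count, and several markers of the mature nephron were near 0 in both lines. Of 29 entries 15 were tested (9 short of the minimum in 1 line), 8 of them higher in 293T by the size rule and 3 in A549, with a median log2 difference of -1.13. CITED1 read 0.141, 0.106 and 0.423 FPKM in the 3 A549 libraries and 53.2, 47.5 and 50.5 in the 3 293T libraries, again highest among A549 libraries in replicate 3. SIX2, which keeps nephron progenitors undifferentiated, read 0.0107, 0 and 0 FPKM in the 3 A549 libraries and 10.8, 8.62 and 9.24 in the 3 293T libraries. Among markers of differentiated nephrons SLC12A1 was at 0 against 0.00178 FPKM, SLC12A3 at 0 against 0.00619 FPKM and CUBN at 0.0303 against 0.0398 FPKM, A549 first. LRP2, the endocytic receptor megalin of the proximal tubule, was higher in 293T, at 0.00762 ± 0.00249 FPKM in A549 and 1.2 ± 0.0158 in 293T. PAX2 was at 0.17 against 0.587 FPKM and PAX8 at 0.233 against 0.00855 FPKM, A549 first, and neither was tested. Those higher in A549 included the cadherins CDH6 at 3.09 ± 0.149 FPKM in A549 and 0.00345 ± 0.00147 in 293T and CDH16 at 1.63 ± 0.194 FPKM in A549 and 0.00303 ± 0.00525 in 293T.

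Epithelial keratins and junction genes were mostly, but not all, higher in A549. Of 40 listed, 31 were tested, and 13 of these fell short of the minimum in a library of 1 line. The size rule held for 17 higher in A549 and 5 higher in 293T, and the median log2 difference was 1.04. KRT8 and KRT18, which pair in simple epithelia, were at 1568 ± 7.31 FPKM in A549 and 28.9 ± 1.98 in 293T and at 1665 ± 36.6 FPKM in A549 and 52.7 ± 0.714 in 293T. KRT80 and KRT19 were at 40.3 against 0.0276 FPKM and 17.4 against 0.0249 FPKM, A549 first, and CLDN1, a claudin of tight junctions, at 33.8 ± 0.801 FPKM in A549 and 0.207 ± 0.0213 in 293T. CDH1, E-cadherin, read 16.2, 16 and 16.6 FPKM in the 3 A549 libraries and 0.954, 0.885 and 0.874 in the 3 293T libraries. In 293T the desmosomal genes DSP and DSC2 were higher, DSP at 19.5 ± 0.446 FPKM in A549 and 58.2 ± 0.795 in 293T and DSC2 at 0.985 ± 0.0858 FPKM in A549 and 4.76 ± 0.21 in 293T. EPCAM, an epithelial surface marker, was low in both, at 2.11 ± 0.243 FPKM in A549 and 0.719 ± 0.23 in 293T. ESRP1, a regulator of epithelial splicing, and GRHL2, one of epithelial identity, were near absent in both lines. They were at 0.0479 against 0.00882 FPKM and 0.00105 against 0.00318 FPKM, A549 first.

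Mesenchymal genes were present in both lines. By the size rule 8 of 23 tested (5 short of the minimum in 1 line) were higher in A549 and 6 in 293T. VIM, vimentin, was at 616 ± 3.35 FPKM in A549 and 329 ± 1.49 in 293T, and CDH2, N-cadherin, at 21.7 ± 0.703 FPKM in A549 and 30.8 ± 0.406 in 293T. E-cadherin relative to N-cadherin was 0.752 ± 0.0385 in A549 and 0.0294 ± 0.0018 in 293T, and KRT8 relative to VIM was 2.55 ± 0.0254 in A549 and 0.0877 ± 0.00578 in 293T. Higher in A549 were, besides TGFBI and S100A4, the lysyl oxidase LOXL2 at 91.4 ± 2.41 FPKM in A549 and 1.93 ± 0.336 in 293T and fibronectin, FN1, at 217 ± 4.73 FPKM in A549 and 11.4 ± 0.433 in 293T. The transcription factors FOXC1 and SNAI2 were higher in 293T, at 3.4 ± 0.235 FPKM in A549 and 77 ± 1.26 in 293T and 1.37 ± 0.0933 FPKM in A549 and 20.8 ± 0.883 in 293T, as was SPARC at 2.67 ± 0.148 FPKM in A549 and 29.2 ± 0.124 in 293T. Markers of blood, vessel and stroma were low. Of 18, 4 were tested (2 short of the minimum in 1 line), CD68, a lysosomal protein not limited to macrophages, was at 23.6 ± 0.361 FPKM in A549 and 2.37 ± 0.116 in 293T, and PTPRC, PECAM1, VWF and CDH5 did not exceed 0.0292 FPKM in the mean of either line.

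**Figure D5:**
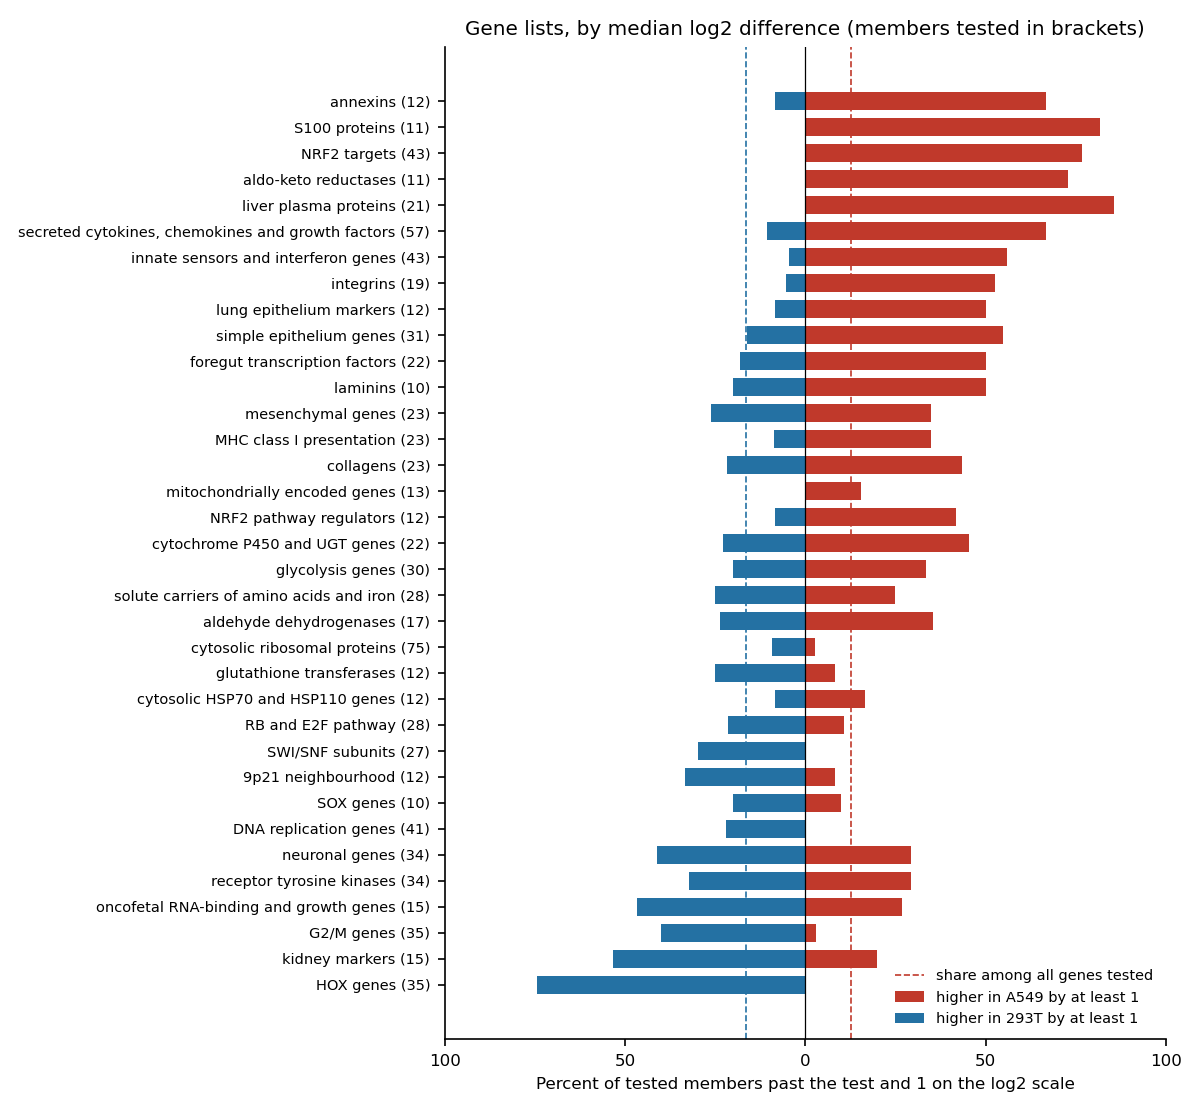
Share of tested members of the gene lists shown, each with at least 10 tested, that were higher in A549 (red, right) or higher in 293T (blue, left) by an adjusted p of 0.05 and 1 on the log2 scale, ordered by median log2 difference. Dashed lines mark the shares among all genes tested, 12.6% and 16.5%. Annexins, S100 proteins and NRF2 targets stand at the A549 end, and HOX genes and kidney markers at the 293T end.

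Neuronal genes were divided. The list had 52 genes, 34 of them tested and 14 of these short of the minimum in a library of 1 line. Past the size rule, 10 were higher in A549 and 14 in 293T, and the median log2 difference was -0.65. NEFM, BEX1, BEX4 and CKB, the brain type of creatine kinase, were higher in 293T. CKB read 17.8, 15.6 and 17.4 FPKM in the 3 A549 libraries and 507, 487 and 484 in the 3 293T libraries. BEX1 read 0, 0 and 0.0648 FPKM in the 3 A549 libraries and 22.5, 23.6 and 23 in the 3 293T libraries. NEFL was at 3.79 ± 0.0911 FPKM in A549 and 17.3 ± 0.469 in 293T and ISL1 at 0.0321 ± 0.0244 FPKM in A549 and 5.87 ± 0.289 in 293T. On the other side TUBB3, a tubulin used as a neuronal marker, read 113, 109.8 and 117 FPKM in the 3 A549 libraries and 6.79, 6.32 and 6.42 in the 3 293T libraries, and the synaptic SNAP25 was at 5.74 ± 0.339 FPKM in A549 and 0.155 ± 0.0872 in 293T. UCHL1, a ubiquitin hydrolase abundant in neurons, was at 412 ± 1.52 FPKM in A549 and 102 ± 0.614 in 293T. Of 2 further tubulins, TUBB2B was higher in 293T, at 2.62 ± 0.196 FPKM in A549 and 19.3 ± 0.371 in 293T, and TUBB6 did not pass the test, at 27.7 ± 0.103 FPKM in A549 and 26.4 ± 0.903 in 293T.

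Genes of hepatic secretion that reached the minimum were nearly all higher in A549. Of 45 listed, 21 were tested, and 19 of these fell short of the minimum in a library of 1 line. Higher by the size rule were 18 in A549 and 0 in 293T, with a median log2 difference of 1.98. By the adjusted p alone 20 were higher in A549 and 1 in 293T. Of the complement genes, C3 read 103, 107 and 108 FPKM in the 3 A549 libraries and 0.155, 0.227 and 0.23 in the 3 293T libraries, and CFB was at 19.7 ± 0.346 FPKM in A549 and 0.0632 ± 0.0214 in 293T. The 3 fibrinogen chains FGA, FGB and FGG were at 5.0, 5.61 and 2.95 FPKM in A549 and none exceeded 0.0207 in 293T. APOH, a phospholipid-binding apolipoprotein, had a mean of 13.6 ± 0.974 FPKM in A549 and no count in 293T, at least 204-fold higher against a floor of 3 counts per library. Albumin and alpha-fetoprotein, ALB and AFP, were near 0 in both lines, at 0.015 against 0.00759 FPKM and 0.0106 against 0.0107 FPKM, A549 first.

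Transcription factors listed for the foregut, among them the intestinal factor CDX2, were divided between the lines. FOXA2, HNF4A and EHF were read in A549 at 12.4, 1.49 and 5.94 FPKM, and in 293T at 0.0221 FPKM or less. ELF3, an epithelial ETS factor, read 52.2, 53.4 and 54 FPKM in the 3 A549 libraries and 0.0867, 0.039 and 0.063 in the 3 293T libraries. GATA4, GATA6 and CDX2 were higher in 293T, at 0.67 ± 0.0831 FPKM in A549 and 9.27 ± 0.186 in 293T, 2.52 ± 0.294 FPKM in A549 and 15.7 ± 0.546 in 293T and 0.0759 ± 0.0553 FPKM in A549 and 9.75 ± 0.719 in 293T. In all, 11 of 22 tested (12 short of the minimum in 1 line) were higher in A549 and 4 in 293T by the size rule.

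HOX genes, which encode position along the body axis, were higher in 293T almost as a family. The list had 39 genes, 35 of them tested and 11 of these short of the minimum in a library of 1 line. The size rule held for 0 higher in A549 and 26 higher in 293T, and the median log2 difference was -1.80. By the adjusted p alone 33 were higher in 293T and 2 in A549, HOXB7 at 11.3 ± 0.755 FPKM in A549 and 6.84 ± 0.917 in 293T and HOXA3 at 5.93 ± 0.376 FPKM in A549 and 5.24 ± 0.201 in 293T. The posterior HOXD genes were farthest apart. HOXD10 read 0.0864, 0.0433 and 0.217 FPKM in the 3 A549 libraries and 51.1, 51.8 and 51.8 in the 3 293T libraries. For HOXD13 the values were 0.00399, 0.044 and 0.136 FPKM in the 3 A549 libraries and 28.6, 29 and 28.8 in the 3 293T libraries, and HOXD9 read 0, 0.0689 and 0.0138 FPKM in the 3 A549 libraries and 18.2, 18.8 and 18.8 in the 3 293T libraries. All 3 stayed under 0.5 FPKM in each A549 library. Of the A cluster, HOXA11 was at 0.0644 ± 0.0436 FPKM in A549 and 17.1 ± 0.315 in 293T and HOXA5 at 3.97 ± 0.0778 FPKM in A549 and 50.001 ± 1.39 in 293T, so A549 kept a level of the latter. HOXB9 was at 4.11 ± 0.396 FPKM in A549 and 49.7 ± 1.89 in 293T. Of 10 SOX genes tested (4 short of the minimum in 1 line), 1 was higher in A549 by the size rule, SOX9 at 7.72 ± 0.108 FPKM in A549 and 3.02 ± 0.0653 in 293T, and 2 in 293T, SOX8 at 0.239 ± 0.0582 FPKM in A549 and 1.7 ± 0.148 in 293T and SOX7 at 0.192 ± 0.0638 FPKM in A549 and 1.54 ± 0.22 in 293T.

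Oncofetal genes were divided between the lines. Of 15 tested (8 short of the minimum in 1 line), 4 were higher in A549 and 7 in 293T by the size rule. PEG10 and MEST, both imprinted, read 44.5, 41 and 41.5 and 18.1, 17.4 and 17 FPKM in A549, and 0.30, 0.222 and 0.237 and 0.0139, 0.00687 and 0.0208 in 293T, while PLAGL1, also imprinted, was higher in 293T, at 3.02 ± 0.22 FPKM in A549 and 15 ± 0.481 in 293T. HMGA1, an architectural chromatin protein, was higher in A549, at 338 ± 4.07 FPKM in A549 and 104 ± 4.39 in 293T. LIN28B, which blocks maturation of let-7 microRNAs, was at 2.38 ± 0.171 FPKM in A549 and 23.7 ± 1.04 in 293T, and GPC3, a heparan sulphate proteoglycan of embryonic tissue, at 0.0135 ± 0.0155 FPKM in A549 and 13.5 ± 0.375 in 293T. IGF2BP2 and IGF2BP1, RNA-binding proteins, were both higher in 293T, at 4.18 ± 0.0982 FPKM in A549 and 13.4 ± 0.273 in 293T and 21 ± 0.565 FPKM in A549 and 44.1 ± 0.355 in 293T, and the ratio of the first to the second was 0.199 ± 0.00192 in A549 and 0.304 ± 0.00602 in 293T. Of 9 germline antigens tested (6 short of the minimum in 1 line), 5 were higher in 293T by the size rule and 1 in A549. MAGEA1 was at 0.010 ± 0.00869 FPKM in A549 and 10.6 ± 0.134 in 293T and MAGEB2 at 0.00519 ± 0.00899 FPKM in A549 and 7.45 ± 0.569 in 293T, while PRAME was at 43.9 ± 0.446 FPKM in A549 and 19.3 ± 1.15 in 293T. Members of the MAGEA group are alike, so their reads may be exchanged.

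Secreted signals were mostly higher in A549. Of 81 listed, 57 were tested, and 34 of these fell short of the minimum in a library of 1 line. Past the size rule, 38 were higher in A549 and 6 in 293T, and the median log2 difference was 1.92. Among the members with the largest differences were chemokines that attract neutrophils and DKK1. CXCL5 read 215, 179 and 175 FPKM in the 3 A549 libraries and 0.14, 0.106 and 0.215 in the 3 293T libraries. CXCL1 read 122, 117 and 116 FPKM in the 3 A549 libraries and 0.312, 0.264 and 0.245 in the 3 293T libraries. For CXCL8, interleukin 8, the values were 81.1, 79.7 and 80.1 FPKM in the 3 A549 libraries and 0.203, 0.138 and 0.305 in the 3 293T libraries. The A549 libraries of each lay far above all 293T libraries. CCL2, which attracts monocytes, was at 125 ± 3.24 FPKM in A549 and 0.352 ± 0.276 in 293T, and DKK1, a secreted inhibitor of Wnt receptors, at 241 ± 11.8 FPKM in A549 and 1.15 ± 0.188 in 293T. The EGF receptor ligands EREG and AREG were at 34.6 ± 5.3 FPKM in A549 and 0.0283 ± 0.030 in 293T and 33.7 ± 0.72 FPKM in A549 and 0.147 ± 0.116 in 293T. Of the 6 higher in 293T, MDK, midkine, was at 4.97 ± 0.114 FPKM in A549 and 51.3 ± 1.88 in 293T, BMP7 at 0.901 ± 0.186 FPKM in A549 and 9.95 ± 0.226 in 293T, PGF at 0.418 ± 0.0533 FPKM in A549 and 6.77 ± 0.186 in 293T and BMP2 at 4.09 ± 0.217 FPKM in A549 and 23.2 ± 0.703 in 293T. Interleukins 6 and 1 beta, IL6 and IL1B, did not reach the minimum in either line.

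The promoters of this list were searched for the letters of a TATA box. The letters TATAAA, on the strand of the gene and beginning 40 to 20 bases before its start, were in 12 of 39 promoters matched (30.8%), against 2.55% of all 27305 and 1.61% of the genes tested. Among genes higher in A549 by the size rule the share was 4.52%, among those higher in 293T 1.56% and among the others 1.15%. CpG dinucleotides per 300 bases had medians of 23, 26 and 27 in these classes. Stretches upstream of the start are shown for 5 genes that differed strongly and for GDF11, which lay the other way, with the box in capitals and read 5′ to 3′ along the gene.
CXCL8: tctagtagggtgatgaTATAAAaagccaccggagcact
AREG: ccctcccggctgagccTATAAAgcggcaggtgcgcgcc
EREG: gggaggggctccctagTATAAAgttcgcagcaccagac
DKK1: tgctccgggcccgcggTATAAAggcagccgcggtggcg
TGFB2: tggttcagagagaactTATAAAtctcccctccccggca
GDF11: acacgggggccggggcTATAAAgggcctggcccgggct

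They lie on GRCh38.p14 at chr4:73740522-73740559 for CXCL8, chr4:74445091-74445128 for AREG, chr4:74365097-74365134 for EREG, chr10:52314235-52314272 for DKK1, chr1:218345291-218345328 for TGFB2 and chr12:55743073-55743110 for GDF11, all on the plus strand. TGFB2, a TGF-beta, was at 14.8 ± 0.436 FPKM in A549 and 0.124 ± 0.0103 in 293T, and GDF11, of the same superfamily, at 1.53 ± 0.052 FPKM in A549 and 5.12 ± 0.212 in 293T. KITLG, the ligand of the receptor KIT, also held the box and did not pass the test, at 6.74 ± 0.988 FPKM in A549 and 5.85 ± 0.411 in 293T. The same letters in genes of both directions are a description and no more.

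Calcium-binding families were high in A549. The list of S100 proteins had 20 genes, 11 of them tested and 5 of these short of the minimum in a library of 1 line. Higher by the size rule were 9 in A549 and 0 in 293T, with a median log2 difference of 2.71. S100A16, S100A3 and S100P were at 112 against 0.335 FPKM, 34.4 against 0.0234 FPKM and 30.6 against 0.111 FPKM, A549 first, while S100A10 and S100A11 were abundant in both lines, at 652 ± 29.6 FPKM in A549 and 205 ± 3.06 in 293T and 653 ± 27.9 FPKM in A549 and 101 ± 2.27 in 293T. S100A13 was at 15.8 ± 1.07 FPKM in A549 and 14 ± 0.345 in 293T. Annexins, which bind membranes in the presence of calcium, gave 8 of 12 tested (4 short of the minimum in 1 line) higher in A549 by the size rule and 1 in 293T. ANXA1 read 935, 944 and 937 FPKM in the 3 A549 libraries and 14, 14.4 and 15.3 in the 3 293T libraries. ANXA2, which pairs with S100A10, read 506, 541 and 519 FPKM in the 3 A549 libraries and 30.1, 30.9 and 31.5 in the 3 293T libraries. ANXA6 lay the other way at 11.5 ± 0.32 FPKM in A549 and 45.4 ± 0.872 in 293T, and ANXA1 relative to ANXA6 was 81.5 ± 2.06 in A549 and 0.321 ± 0.0203 in 293T. ANXA10, a gastric annexin, was at 34.1 ± 0.853 FPKM in A549 and 0.0287 ± 0.0101 in 293T, and ANXA8 and ANXA8L1 are near-identical copies.

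Integrin genes were mostly higher in A549. Of 26 listed, 19 were tested, and 10 of these fell short of the minimum in a library of 1 line. The size rule held for 10 higher in A549 and 1 higher in 293T, and the median log2 difference was 1.13. ITGB1, the beta chain shared by many integrins, read 585, 609 and 598 FPKM in the 3 A549 libraries and 43.8, 45.9 and 43.2 in the 3 293T libraries. ITGA3 was at 159.6 ± 0.268 FPKM in A549 and 2.02 ± 0.112 in 293T, ITGB4 at 25.8 ± 0.651 FPKM in A549 and 0.12 ± 0.0333 in 293T and ITGB5 at 68.3 ± 1.14 FPKM in A549 and 5.58 ± 0.0983 in 293T. ITGA7, of muscle, was higher in 293T at 0.194 ± 0.0251 FPKM in A549 and 1.89 ± 0.149 in 293T. Among laminin chains, 5 of 10 tested (4 short of the minimum in 1 line) were higher in A549 and 2 in 293T by the size rule. LAMB3 was at 28.3 ± 0.726 FPKM in A549 and 1.04 ± 0.024 in 293T and LAMB1 at 64.9 ± 1.39 FPKM in A549 and 11.8 ± 0.223 in 293T, with a ratio of LAMB3 to LAMB1 of 0.436 ± 0.00879 in A549 and 0.0877 ± 0.00194 in 293T. LAMA1, the chain of early embryos, was at 0.0151 ± 0.00554 FPKM in A549 and 3.6 ± 0.0853 in 293T. Collagens were mixed, 10 of 23 tested (10 short of the minimum in 1 line) being higher in A549 and 5 in 293T by the size rule. COL7A1 was at 40.4 ± 1.3 FPKM in A549 and 0.848 ± 0.0502 in 293T and COL5A2 at 66.4 ± 1.13 FPKM in A549 and 2.22 ± 0.268 in 293T. COL2A1, of cartilage, lay the other way at 0.00435 FPKM in A549 and 2.47 ± 0.158 in 293T.

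Receptor tyrosine kinases were divided by member. By the size rule 10 of 34 tested (12 short of the minimum in 1 line) were higher in A549 and 11 in 293T. EGFR read 50.9, 48.7 and 51.5 FPKM in the 3 A549 libraries and 1.8, 1.7 and 1.63 in the 3 293T libraries. AXL, a receptor of the TAM family, read 35.1, 33 and 33.9 FPKM in the 3 A549 libraries and 0.0215, 0.0902 and 0.0697 in the 3 293T libraries. EPHA2, an ephrin receptor, read 49.4, 48.5 and 49.8 FPKM in the 3 A549 libraries and 3.13, 2.85 and 3.06 in the 3 293T libraries. The lines did not overlap for any of these receptors. MET, the receptor of hepatocyte growth factor, was at 78.7 ± 1.44 FPKM in A549 and 11.7 ± 0.256 in 293T. FGFR3 was higher in 293T at 1.14 ± 0.0615 FPKM in A549 and 19.9 ± 0.271 in 293T, PTK7 at 2.01 ± 0.262 FPKM in A549 and 17.4 ± 0.356 in 293T and KIT at 0.030 ± 0.015 FPKM in A549 and 3.79 ± 0.151 in 293T. ERBB2 did not pass the test, at 9.97 ± 0.191 FPKM in A549 and 9.48 ± 0.111 in 293T. The ligands AREG and EREG and their receptor EGFR were thus all higher in A549, and KIT was higher in 293T while its ligand KITLG did not pass the test.

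Innate immune genes were mostly higher in A549. The list had 53 genes, 43 of them tested and 18 of these short of the minimum in a library of 1 line. Past the size rule, 24 were higher in A549 and 2 in 293T, and the median log2 difference was 1.16. OAS3 and OAS1, sensors of double-stranded RNA, read 30.4, 31.2 and 28.2 and 9.61, 10.05 and 9.08 FPKM in A549 and 0.411, 0.532 and 0.411 and 0.00634, 0.0125 and 0.00634 in 293T. CGAS, the sensor of cytosolic DNA, was at 5.91 ± 0.304 FPKM in A549 and 0.0488 ± 0.00786 in 293T, and STING1, the adaptor it signals through, lay the other way at 0.132 ± 0.032 FPKM in A549 and 3.35 ± 0.281 in 293T. IFI35 was at 15.2 ± 1.61 FPKM in A549 and 1.28 ± 0.109 in 293T and IRF1 at 14.6 ± 0.366 FPKM in A549 and 1.84 ± 0.136 in 293T. Of 23 genes of MHC class I presentation tested (6 short of the minimum in 1 line), 8 were higher in A549 by the size rule and 2 in 293T. The immunoproteasome subunit PSMB8 read 11.9, 12.3 and 12.3 FPKM in the 3 A549 libraries and 0.0171, 0 and 0.0171 in the 3 293T libraries, and TAPBP, tapasin, 27.2, 25.7 and 28 FPKM in the 3 A549 libraries and 2.52, 2.73 and 2.43 in the 3 293T libraries. The heavy chains HLA-B and HLA-C were higher in 293T. HLA-B read 6.83, 7.2 and 5.47 FPKM in the 3 A549 libraries and 56, 57.3 and 55.2 in the 3 293T libraries. HLA-C read 27.3, 29.95 and 29 FPKM in the 3 A549 libraries and 112, 111 and 114 in the 3 293T libraries. Reads of HLA genes depend on how each line's alleles match the reference, which was not tested.

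Metabolic genes were mixed. Of 30 glycolysis genes tested (3 short of the minimum in 1 line), 10 were higher in A549 and 6 in 293T by the size rule. The lactate exporter SLC16A3 read 24.3, 23 and 23.6 FPKM in the 3 A549 libraries and 0.0161, 0.0957 and 0.0645 in the 3 293T libraries, and PFKFB3, which activates glycolysis through fructose 2,6-bisphosphate, had a mean of 108 ± 0.473 FPKM in A549 and 12.1 ± 0.226 in 293T. PDK4 was at 18.6 ± 1.48 FPKM in A549 and 0.559 ± 0.0266 in 293T and PFKP at 104 ± 2.12 FPKM in A549 and 16.2 ± 0.60 in 293T. Hexokinase 2, HK2, was higher in 293T at 0.555 ± 0.0904 FPKM in A549 and 15.7 ± 0.263 in 293T, as was the transporter SLC16A1 at 18.7 ± 1.64 FPKM in A549 and 84.9 ± 3.4 in 293T. The summed pair of LDHA and LDHB was 1349 ± 45.2 FPKM in A549 and 1051 ± 10.1 in 293T, and LDHA relative to LDHB was 1.96 ± 0.0138 in A549 and 0.834 ± 0.0186 in 293T. ENO1 was at 729 ± 16.8 FPKM in A549 and 535 ± 1.4 in 293T and ENO2 at 27.9 ± 0.747 FPKM in A549 and 6.84 ± 0.616 in 293T.

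Carriers of amino acids and iron gave 7 of 28 tested (6 short of the minimum in 1 line) on each side by the size rule. SLC7A11, the cystine importer, was at 48.5 ± 10.2 FPKM in A549 and 2.91 ± 0.243 in 293T and SLC7A5, a carrier of large neutral amino acids, at 246 ± 4.94 FPKM in A549 and 48.4 ± 0.653 in 293T. The creatine carrier SLC6A8 was higher in 293T at 1.62 ± 0.117 FPKM in A549 and 32.8 ± 0.908 in 293T, the line in which CKB was also higher. SLC7A8 was at 0.0239 ± 0.00844 FPKM in A549 and 5.2 ± 0.156 in 293T. TFRC, the transferrin receptor, was at 83.6 ± 0.422 FPKM in A549 and 79.7 ± 1.8 in 293T, a difference of 0.07 whose sign turned negative on rescaling to TPM.

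Of 4 metallothioneins tested (1 short of the minimum in 1 line), which bind zinc and copper, 3 were higher in A549 by the size rule. MT2A read 231, 226 and 232 FPKM in the 3 A549 libraries and 13.8, 10.8 and 16.4 in the 3 293T libraries. MT1X read 41.8, 43.9 and 41.3 FPKM in the 3 A549 libraries and 12, 13.6 and 15.9 in the 3 293T libraries. The libraries of the lines overlapped for MT1F, at 1.65, 3.09 and 2.43 FPKM in the 3 A549 libraries and 1.34, 1.99 and 2.24 in the 3 293T libraries (adjusted p = 0.21). MT1A had a mean of 1.04 ± 0.425 FPKM in A549 and no count in 293T. MT1G and MT3 were under 0.1 FPKM in both lines, and MT1E had no count in any unexposed library. Of 12 cytosolic HSP70 and HSP110 genes tested (1 short of the minimum in 1 line), 2 were higher in A549 by the size rule, HSPA2 at 31.7 ± 1.28 FPKM in A549 and 2.99 ± 0.40 in 293T and HSPA1A at 49.9 ± 1.3 FPKM in A549 and 9.29 ± 0.384 in 293T, and 1 in 293T, HSPA1B at 31.2 ± 1.82 FPKM in A549 and 203 ± 5.62 in 293T. HSPA1A and HSPA1B encode the same protein and their reads can be exchanged. Their sum was 81.1 ± 2.96 FPKM in A549 and 212 ± 5.99 in 293T.

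Genes for cytosolic ribosomal proteins were close to the rest of the transcriptome. Of 75 tested, 2 were higher in A549 and 7 in 293T by the size rule, with a median log2 difference of -0.18 beside -0.25 over all genes. RPL5 was at 492 ± 18.8 FPKM in A549 and 1294 ± 21.2 in 293T and RPS16 at 1385 ± 18.2 FPKM in A549 and 659 ± 6.5 in 293T. The 13 mitochondrially encoded genes summed to 85486 to 94022 FPKM over the A549 libraries and 51853 to 55604 over the 293T libraries. COX1 and COX3, subunits of cytochrome oxidase, passed the size rule, at 17865 ± 1221 FPKM in A549 and 6952 ± 232 in 293T and 14878 ± 819 FPKM in A549 and 6745 ± 174 in 293T. The median of the 13, 0.46, turned to -0.06 under quantile normalization.

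RSRP1, the gene that the title of the series puts at its centre, read 4.74, 5.14 and 6.22 FPKM in the 3 A549 libraries and 8.28, 8.92 and 9.09 in the 3 293T libraries, a log2 difference of -0.62 ± 0.082 (adjusted p = 1.0e-04), and its libraries did not overlap between lines. In the exposed libraries its log2 difference was -0.12 (adjusted p = 0.24) and did not pass the test, and the difference between the 2 values was not tested. The kinases of SR proteins listed with it were all lower in unexposed A549 by the adjusted p, as were 56.5% of all genes tested. The log2 difference of CLK1, -0.19, was smaller in size than the median of -0.25 over all genes tested. CLK1, CLK2, CLK3 and CLK4 were at 17.6 against 20.3 FPKM, 19.5 against 45.9 FPKM, 14 against 19.8 FPKM and 6.76 against 9.53 FPKM, and SRPK1 and SRPK2 at 27.7 against 67.7 FPKM and 7.27 against 10.4 FPKM, A549 first. CLK2 and SRPK1 passed the size rule. In the exposed libraries CLK1 lay the other way, with a log2 difference of 0.52 (adjusted p = 7.9e-04) beside -0.19 without a field, and the other 5 kinases kept their direction and passed the test.

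Differences were spread unevenly over the autosomes. The median log2 difference of the genes tested was lowest on chromosome 22, at -0.84 over 328 genes, and was also low on chromosome 21 (-0.63), chromosome 6 (-0.63) and chromosome 1 (-0.57). It was highest on chromosome 8, at 0.15 over 477 genes, and on chromosome 20 (0.08). On chromosome 22, 38.7% of the genes were higher in 293T by the size rule and 8.84% in A549, while on chromosome 8 the shares were 8.6% and 19.9%. These are descriptions without a test, and copy number was not measured.

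The 6 exposed libraries, which did not enter the fit of the unexposed ones, were fitted in the same way. The genes were the same 13479, chosen by their levels in the unexposed libraries. A gene that met the minimum only in exposed libraries was therefore not included, and the shared calls below hold for this set. Between exposed A549 and exposed 293T, 11756 genes passed the adjusted p (87.2%), and 3798 passed the size rule (28.2%), 1621 of them higher in A549 and 2177 in 293T. Of the 12066 genes called in the unexposed libraries, 11156 were called in the same direction in the exposed libraries and 61 in the opposite one. Of the 3927 past the size rule, 3447 passed it in the same direction there, 87.8% of the unexposed and 90.8% of the exposed list, and none changed sign. For S100A6, NQO1, PRDX2 and CDKN2A the exposed log2 differences were 8.88, 6.59, -7.41 and -4.77, beside 9.18, 6.74, -7.52 and -4.73 without a field. Of the 280 tested genes named here, 268 passed the adjusted p in the unexposed libraries. Of these, CLK1 and HOXA3 passed it in the opposite direction in the exposed libraries (HOXA3 at -0.56 beside 0.15), and RSRP1, EEF1A1, S100A13 and TUSC1 did not pass it. GCLM, MT1A, PMAIP1, SOX7 and SOX8 passed the size rule without a field and fell short of 1 on the log2 scale with it.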

How the data were processed

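The authors deposited 1 table of FPKM values for 12 libraries, 3 per group. Reads were handled with fastp, HISAT2 and HTSeq on GRCh38, per the submitters' processing notes, which give no versions here. Strand use and the annotation release are not given in the sources used here. Whole counts were recovered from the deposited FPKM for 26346 of 26348 genes within 0.01 counts. They gave totals of 38245297 to 38884704 for the 6 unexposed libraries and served for depth, floors and 1 alternative.

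Values were compared as log2(FPKM + 1) with limma 3.58.1 in R 4.3.3, two-sided, with a trend in the variance, Benjamini-Hochberg adjustment over 13479 genes and a threshold of 0.05. The fit had 6 libraries and 4 residual degrees of freedom. Such differences understate the change of low genes. The method was tested on simulated data in which few genes changed, unlike the lines here, so that test cannot speak to the scaling. Errors are SD over 3 libraries unless called standard error. Floors of 3 counts per library cover counting error only.

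The members and the 41 gene lists were chosen with earlier results of these data known. Of 1238 list entries, 41 had no match. Genes named are the 15 largest differences each way with no overlap and at least 1 FPKM in the higher line, the 8 most abundant nuclear genes of each line, RSRP1, 2 to 6 leading members of each list, all members of lists of fewer than 12 or about a locus, and 14 gene pairs. Other members named were chosen after their values were seen. Some genes this rule names, and 1 gene list, are not reported here. Of 915 listed or ranked genes checked, 501 overlap another RefSeq gene, so their reads may be shared, and the same holds for near-identical copies. Promoters and gene positions come from RefSeq GRCh38.p14, to which 25419 genes matched. Alternatives covered the pseudocount, filters, scalings, the variance model, the libraries fitted, a replicate block, limma-voom on counts and each library left out.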

Additional observations from a re-analysis of the deposited data

How the results depend on the processing

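The counts of genes kept within 1.5 times of their value under every alternative run except 3. Genes higher in 293T by the size rule numbered 3439 after rescaling to TPM and 3412 with limma-voom on recovered counts, against 2225, and in the exposed libraries 3359 with a pseudocount of 0.1, against 2177. The cause was not tested. The median log2 difference of all genes, -0.25, was -0.41 after rescaling to TPM, -0.15 under quantile normalization and -0.02 with no filter, and differences smaller than such shifts depend on the scaling. By the size rule 1887 genes were higher in A549 and 1847 in 293T under median centring, and 1873 and 1846 under quantile normalization.

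Leaving out 1 library at a time gave 4315 to 4427 genes higher in A549 and 7438 to 7663 higher in 293T (11760 to 12062 in all), and 1682 to 1710 and 2200 to 2258 by the size rule (3908 to 3940 in all). In the exposed libraries these ranges were 4094 to 4247 and 7296 to 7394 (11426 to 11610 in all), and 1608 to 1638 and 2159 to 2229 (3789 to 3850 in all). The replicate numbers did not pair the libraries: deviations of A549 and 293T libraries with the same number correlated at -0.17, 0.03 and -0.14. With the number as a replicate block, 4394 genes were higher in A549 and 7547 in 293T.

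Of 697 recomputed list medians, 490 stayed within 1 SD over libraries, 201 moved farther with the same sign and 6 changed sign. Of 1394 recomputed list counts 45 moved by over 1.5 times. The aldehyde dehydrogenases moved to 0.15 with a mean of at least 1 FPKM, 0.0793 under quantile normalization and 0.0616 under median centring, the solute carriers to -0.0446 by TPM, the mitochondrially encoded genes to -0.0577 under quantile normalization and the blood, vessel and stroma markers to 1.29 with a mean of at least 1 FPKM. Among named genes, all close to equal, signs turned by TPM for EEF1A1 and TFRC (-0.0597 each), TUBB6 (-0.0618), ERBB2 (-0.0548) and ATR (-0.0456). Under quantile normalization EEF1A1 turned to -0.24, ALDH1B1 to 0.0793, KEAP1 to 0.12 and MDM2 to 0.0843, and under median centring ALDH1B1 turned to 0.0616, KEAP1 to 0.0862, MDM2 to 0.0611 and RPL7A to 0.0489. With 1 library left out CAAP1 ranged from -0.0003 (without A549 control replicate 1) to 0.2266, KEAP1 from -0.049 to 0.0255 (positive without A549 control replicate 1 or 293T control replicate 2) and MDM2 from -0.1015 to 0.0046 (positive without A549 control replicate 2).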
